A study of Mus musculus with 12 samples.

Results

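Marginal zone (MZ) B cells of the mouse spleen are recognised by a small set of transcripts, and 9 of these marker genes were followed here: Cd1d1, Cd9, Cd36, Cd24a, Myof, Plac8, Asb2, Nebl and Mzb1. They are known marker genes of MZ B cells, chosen with earlier results of these data known, and were matched by gene symbol to the 46078 genes of the count table, where all 9 were found. Messenger RNA was sequenced from MZ and follicular (FO) B cells isolated from spleen with a magnetic kit for both cell types. The mice were C57BL/6, 8 to 12 weeks old, and were either conditional knockouts of Zbtb24 (CKO), a zinc finger gene mutated in the immunodeficiency ICF syndrome, or controls. Each of the groups MZ CKO, MZ control, FO CKO and FO control had 3 libraries. The study's design text describes the CKO mice as VAVcre-Zbtb24 and the controls as VAVcre, while the genotype label of the controls reads WT. Vav-driven Cre is active throughout the blood lineage, so the deletion was not limited to B cells. Library labels carry 6 animal numbers, each once among the MZ and once among the FO libraries, and MZ and FO libraries with the same number were taken as one mouse.

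MZ B cells sit at the edge of the splenic follicle, where they meet antigens from the blood and respond quickly with antibody. Their formation depends on Notch2, whose cleaved form acts with the DNA-binding protein RBPJ. FO B cells recirculate and are marked by the low-affinity IgE receptor CD23, encoded by Fcer2a.

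Gene counts summed to between 36340116 and 44629250 per library. Cdca7, a gene known to need ZBTB24 for its expression, had 2.76, 5.37 and 1.88 CPM (read counts scaled to a common library size) in MZ CKO libraries and 33.1, 42.4 and 33.7 CPM in MZ control libraries. It had 1.01, 2.64 and 0.55 CPM in FO CKO libraries and 31.7, 33.8 and 32.4 CPM in FO control libraries. Zbtb24 itself had 41.8 to 46.4 CPM in MZ CKO and 49.1 to 54.4 CPM in MZ control libraries, and 46.9 to 50 CPM in FO CKO and 60.8 to 62.5 CPM in FO control libraries. Counts over the whole gene do not separate deleted from intact exons. By edgeR's quasi-likelihood test adjusted over all genes, neither Cdca7 nor Zbtb24 passed in CKO against control in either cell type. Both were lower at an unadjusted p under 0.05 in each cell type. Not passing this test therefore does not show that a gene was unchanged. Fcer2a averaged 81.6 ± 10.8 CPM in MZ CKO against 547 ± 40.3 CPM in FO CKO libraries, and 69.6 ± 4.29 CPM in MZ control against 558 ± 33.5 CPM in FO control libraries (SD, n = 3 each). Its libraries did not overlap between the cell types in either genotype, and it passed the same test as lower in MZ. So did 1378 of 17712 genes in CKO mice and 2324 of 17830 in control mice.

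RefSeq promoter windows on GRCm38.p6, from 250 bases before to 50 bases after a start site, were found for 6 of the 9 genes, in 11 windows. The windows that hold the RBPJ core letters TGGGAA on either strand are shown because Notch2 and RBPJ are required for MZ B cells. Each is written 5′ to 3′ along its gene, on the minus strand of the chromosome, with the match in capitals.
Nebl, chr2:17526081-17526380: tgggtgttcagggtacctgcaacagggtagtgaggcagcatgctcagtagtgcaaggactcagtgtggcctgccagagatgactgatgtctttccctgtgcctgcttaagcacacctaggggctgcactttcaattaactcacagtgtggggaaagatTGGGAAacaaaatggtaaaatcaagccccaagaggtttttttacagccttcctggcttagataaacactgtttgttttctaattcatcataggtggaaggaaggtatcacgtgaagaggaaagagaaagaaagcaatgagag
Cd36, chr5:17835847-17836146: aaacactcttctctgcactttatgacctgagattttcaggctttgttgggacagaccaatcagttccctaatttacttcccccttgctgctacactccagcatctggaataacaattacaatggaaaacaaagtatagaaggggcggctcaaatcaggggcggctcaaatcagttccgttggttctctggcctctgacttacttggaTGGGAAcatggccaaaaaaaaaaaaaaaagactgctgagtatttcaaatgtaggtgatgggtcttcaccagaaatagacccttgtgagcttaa
Plac8, chr5:100563047-100563346: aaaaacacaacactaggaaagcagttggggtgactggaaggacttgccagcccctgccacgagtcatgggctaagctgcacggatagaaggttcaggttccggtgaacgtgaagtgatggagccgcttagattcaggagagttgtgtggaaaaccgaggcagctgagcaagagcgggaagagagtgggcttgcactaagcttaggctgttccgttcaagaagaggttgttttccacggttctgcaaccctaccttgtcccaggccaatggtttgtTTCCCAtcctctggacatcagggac
Cd9, chr6:125494711-125495010: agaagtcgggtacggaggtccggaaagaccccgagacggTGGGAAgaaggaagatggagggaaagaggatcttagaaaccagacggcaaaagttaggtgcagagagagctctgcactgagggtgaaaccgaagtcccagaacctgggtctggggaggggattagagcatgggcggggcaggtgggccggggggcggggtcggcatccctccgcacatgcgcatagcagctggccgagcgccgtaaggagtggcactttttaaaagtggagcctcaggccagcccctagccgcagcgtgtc

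The first base of the match lay at -92 from the start site of its window in Nebl and at -43 in Cd36. It lay at 26 in Plac8, where the reverse form TTCCCA was found, and at -211 in Cd9. The Nebl, Cd36 and Plac8 windows with a match lie at start sites inside the gene, and only that of Cd9 reaches the annotated 5′ end. The other windows of Nebl and Plac8 held no match. In all, 7 motifs were searched on both strands. The RBPJ core was in 4 of the 11 windows (36.4%) and in 25.6% of 32817 windows of all genes. The ZBTB24 core CAGGACCT was in 0 of the 11 and in 1.98% of all windows, and the EBF motif, TCCC and GGGA set 2 bases apart, was in 0 of the 11 and in 0.905% of all. A paired IRF motif, GAAA repeated after 2 bases, was in 1 window, of Nebl, and in 3.43% of all. The PU.1 letters GAGGAA were in 3 windows (27.3%) and in 28.3% of all, the KLF letters CCACCC were in 3 windows (27.3%) and in 31.5% of all, and the E-box CAGGTG was in 2 windows (18.2%) and in 20.2% of all. These shares describe letters in short windows and do not show binding. The 11 windows held 1 to 32 CpG dinucleotides with a median of 5, against a median of 7 over all windows.

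All 9 genes were higher in MZ than in FO B cells, in both genotypes, and their MZ libraries did not overlap their FO libraries, as was so in that direction for 18.6% of all genes in CKO mice and 22.2% in control mice. By edgeR's quasi-likelihood test with Benjamini-Hochberg adjustment over all genes, 9 of 9 passed as higher in CKO mice, where 10.5% of 17712 genes passed in that direction, and 9 of 9 in control mice, where 14.9% of 17830 genes did. The median log2 fold change of the 9 genes was 2.13 in CKO mice and 2.46 in control mice, while the median over all genes tested was -0.00766 and 0.00708. Since the genes were chosen as MZ markers, with results of these data known, this direction is a description and no independent check of the sorted cells. The numbers of all genes called in either direction were 3243 (18.3%) in CKO and 4977 (27.9%) in control mice, and 6333 and 7805 when the animal was kept as a block; 9 of 9 markers passed in each of these fits.

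**Figure D1:**
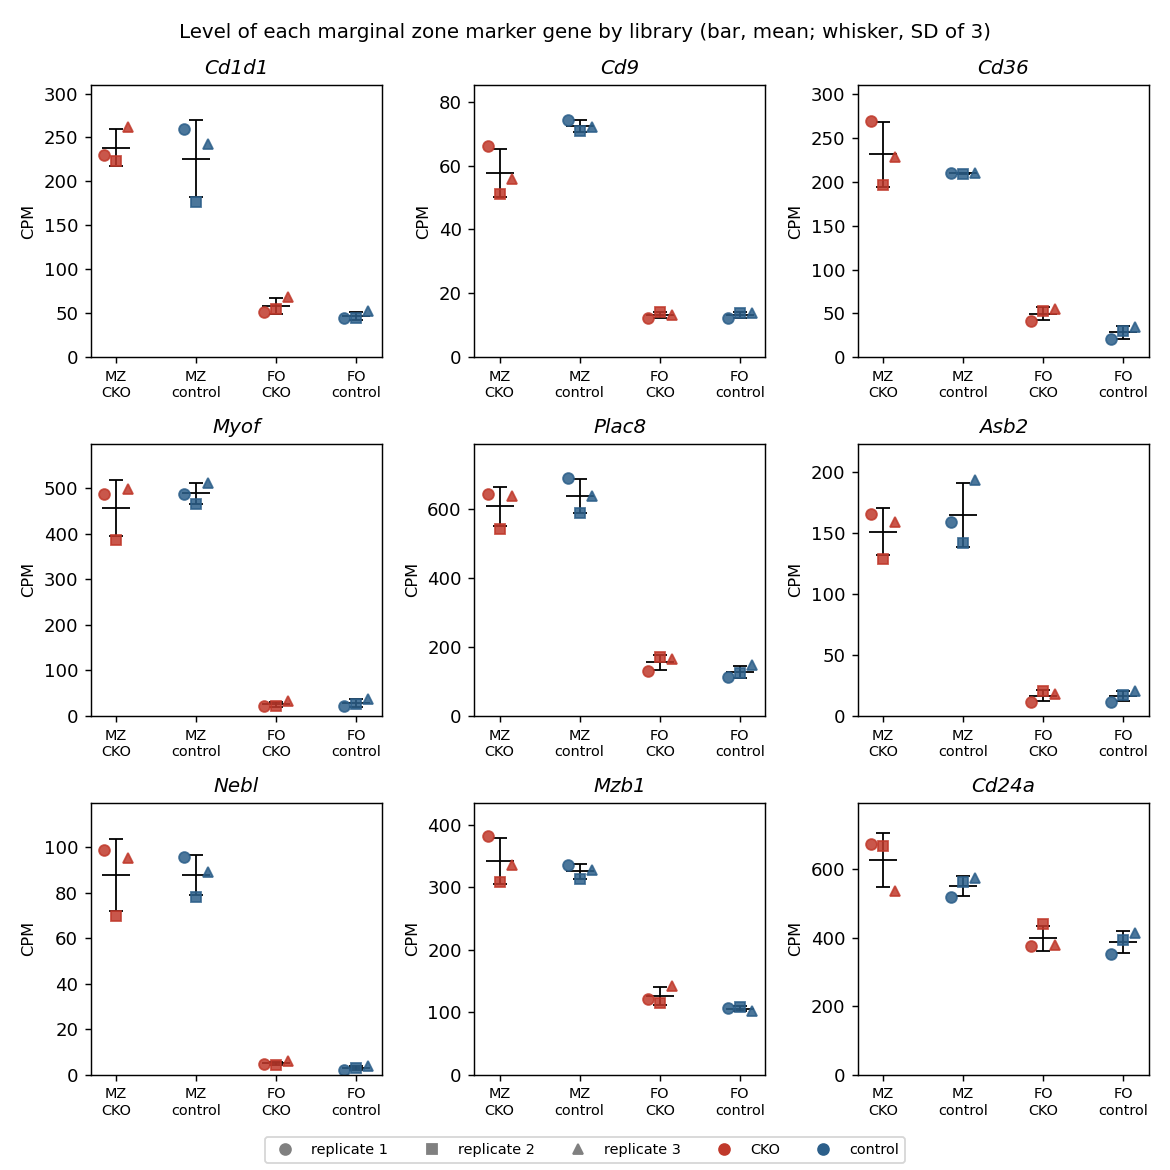
Level of each of the 9 genes in CPM (vertical axes, linear from 0) in the MZ CKO, MZ control, FO CKO and FO control groups. Points are single libraries, with shape giving the replicate, the bar is the mean and the whisker the SD of 3 libraries; every MZ point lies above every FO point of the same gene, most narrowly for Cd24a.

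Among genes of the cell surface, Cd1d1 encodes the molecule that presents lipid antigens to natural killer T cells. It lies on GRCm38 chr3:86995834-86999441. Cd1d1 had 230, 223 and 262 CPM in MZ CKO and 51, 54.5 and 68.1 CPM in FO CKO libraries. The corresponding levels were 260, 176 and 242 CPM in MZ control and 44.8, 44 and 52 CPM in FO control libraries. The MZ over FO log2 fold change was 2.05 (SE 0.12, adjusted p = 1.8e-05) in CKO and 2.27 (SE 0.16, adjusted p = 7.992e-05) in control mice. Its near-identical neighbour Cd1d2 held 1.73% as many counts as Cd1d1 in MZ CKO and 1.73% in MZ control libraries, against 1.11% in FO CKO and 0.97% in FO control libraries. A separate entry for reads not aligned uniquely held 19.6 to 28.7% of each library's entries. Whether it took all reads shared by both copies is not stated in the sources used.

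Cd9 encodes a tetraspanin, a membrane organiser that gathers integrins and other receptors, at chr6:125460266-125494791. It had 66.1, 51.2 and 55.7 CPM in MZ CKO and 12.4, 14.2 and 13.2 CPM in FO CKO libraries. In control mice the values were 74.4, 70.8 and 72.2 CPM in MZ and 12.1, 13.8 and 13.7 CPM in FO libraries. The MZ CKO libraries were thus all below the MZ control libraries, while the FO groups overlapped. The cell type difference was 2.13 (log2, SE 0.11, adjusted p = 9.763e-06) in CKO and 2.46 (SE 0.08, adjusted p = 6.139e-09) in control mice. An opposite-strand gene, Gm26728, covers 10.7% of the exon length of Cd9, and the sources used do not state whether counting used strand.

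Cd36 encodes a scavenger receptor that takes up long-chain fatty acids and oxidised lipoproteins, at chr5:17781690-17888801. Its levels were 270, 196 and 229 CPM in MZ CKO and 41, 52.8 and 54.8 CPM in FO CKO libraries. Control mice had 210, 209 and 210 CPM in MZ and 20.2, 29.6 and 34.5 CPM in FO libraries. FO CKO libraries were all above FO control libraries. MZ over FO was 2.23 (log2, SE 0.16, adjusted p = 0.000158) in CKO and 2.9 (SE 0.2, adjusted p = 0.0001726) in control mice.

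Cd24a encodes a heat-stable sialoglycoprotein of the B cell surface that falls as B cells mature, at chr10:43578284-43584265. It had 674, 669 and 535 CPM in MZ CKO and 375, 441 and 380 CPM in FO CKO libraries. Among controls it had 519, 562 and 574 CPM in MZ and 353, 394 and 414 CPM in FO libraries. The groups lay close together, with a log2 difference of 0.66 (SE 0.11, adjusted p = 0.003366) in CKO and 0.51 (SE 0.08, adjusted p = 0.0004153) in control mice. Cd24a was the smallest of the 9 differences and ranked 1377 of 17712 genes in CKO and 2295 of 17830 in control mice. It is 2.11 Mb from Zbtb24 on chromosome 10, the targeted locus.

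Myof and Nebl stood highest by fold. Myof encodes myoferlin, a membrane repair protein of the ferlin family, at chr19:37899036-38043577. It had 486, 386 and 498 CPM in MZ CKO and 21.9, 22.4 and 32 CPM in FO CKO libraries. In controls it had 488, 466 and 512 CPM in MZ and 22.6, 25.5 and 37.9 CPM in FO libraries. The log2 difference was 4.18 (SE 0.19, adjusted p = 4.031e-05) in CKO and 4.09 (SE 0.22, adjusted p = 7.992e-05) in control mice, at ranks 21 and 36.

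Nebl encodes nebulette, an actin-binding protein known from heart muscle, at chr2:17343909-17731464. It had 98.6, 69.7 and 95.2 CPM in MZ CKO and 4.85, 4.46 and 5.85 CPM in FO CKO libraries. Control libraries had 95.5, 78.1 and 89 CPM in MZ and 2.12, 2.73 and 4 CPM in FO B cells. The FO values rest on 177 to 223 counts per CKO library and 85 to 164 counts per control library. MZ over FO was 4.13 (log2, SE 0.17, adjusted p = 1.039e-05) in CKO and 4.89 (SE 0.23, adjusted p = 2.664e-05) in control mice, at ranks 22 and 18.

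Asb2 encodes the substrate-binding part of a ubiquitin ligase that acts on filamins, at chr12:103321142-103356001. Its levels were 166, 129 and 159 CPM in MZ CKO and 11.7, 20.3 and 17.8 CPM in FO CKO libraries. They were 159, 142 and 194 CPM in MZ control and 11.6, 17.3 and 20.2 CPM in FO control libraries. The log2 difference was 3.2 (SE 0.24, adjusted p = 0.0006613) in CKO and 3.33 (SE 0.25, adjusted p = 0.0006166) in control mice.

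Plac8 encodes a small cysteine-rich protein, at chr5:100553725-100572245. It had 645, 543 and 639 CPM in MZ CKO and 130, 172 and 164 CPM in FO CKO libraries. It had 690, 590 and 639 CPM in MZ control and 113, 124 and 147 CPM in FO control libraries. MZ over FO was 1.98 (log2, SE 0.12, adjusted p = 1.84e-05) in CKO and 2.32 (SE 0.1, adjusted p = 1.201e-07) in control mice.

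Mzb1 encodes an endoplasmic reticulum protein that helps immunoglobulin M assembly and secretion, at chr18:35647267-35649367. It had 382, 308 and 336 CPM in MZ CKO and 121, 115 and 142 CPM in FO CKO libraries. It had 336, 313 and 327 CPM in MZ control and 106, 109 and 102 CPM in FO control libraries. The log2 difference was 1.45 (SE 0.11, adjusted p = 4.031e-05) in CKO and 1.62 (SE 0.07, adjusted p = 2.543e-08) in control mice. A same-strand gene model of GENCODE M21 shares 57.2% of its exon length and is not among the counted genes.

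Per kilobase of exon (RPKM), Plac8 was the highest of the 9 in MZ B cells, with 383 ± 35.7 in CKO and 402 ± 31.4 in control libraries. Mzb1 followed at 282 ± 31 in MZ CKO and 268 ± 9.34 in MZ control, and Cd24a at 243 ± 30.6 in MZ CKO and 214 ± 11.2 in MZ control. Nebl was the lowest, with 5.76 ± 1.04 RPKM in MZ CKO and 5.75 ± 0.578 RPKM in MZ control (SD, n = 3 each). In FO B cells Cd24a came first, with 155 ± 14.2 RPKM in CKO and 150 ± 12 RPKM in control libraries, and Nebl came last, with 0.331 ± 0.047 RPKM in CKO and 0.193 ± 0.0631 RPKM in control libraries. Mzb1 and Plac8, neighbours in the FO order, overlapped in both genotypes, as did Asb2 and Myof in the MZ order; Mzb1 and Cd24a, and Myof and Cd9, overlapped in MZ CKO but not in MZ control libraries. Cd36 and Cd9 overlapped in FO control but not in FO CKO libraries. No other neighbours in these orders overlapped.

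Within single mice, the MZ level exceeded the FO level for all 9 genes in 6 of 6 mice. The ratio for Nebl was 15.6 to 20.3 in CKO mice and 22.2 to 45.2 in control mice, and these did not overlap. It was 1 of the 9 genes with all CKO ratios below all control ratios, as were 5.39% of 18320 genes with counts in every library. For the other 8 genes the genotypes overlapped. The median ratio was lower in CKO than in control mice for 8 of the 9 genes and for 50.2% of all these genes, for example 4.18 against 7.05 for Cd36 and 4.23 against 5.27 for Cd9, and higher for Cd24a, at 1.52 against 1.43. The 9 genes were measured in the same mice, so they are not independent of each other.

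**Figure D2:**
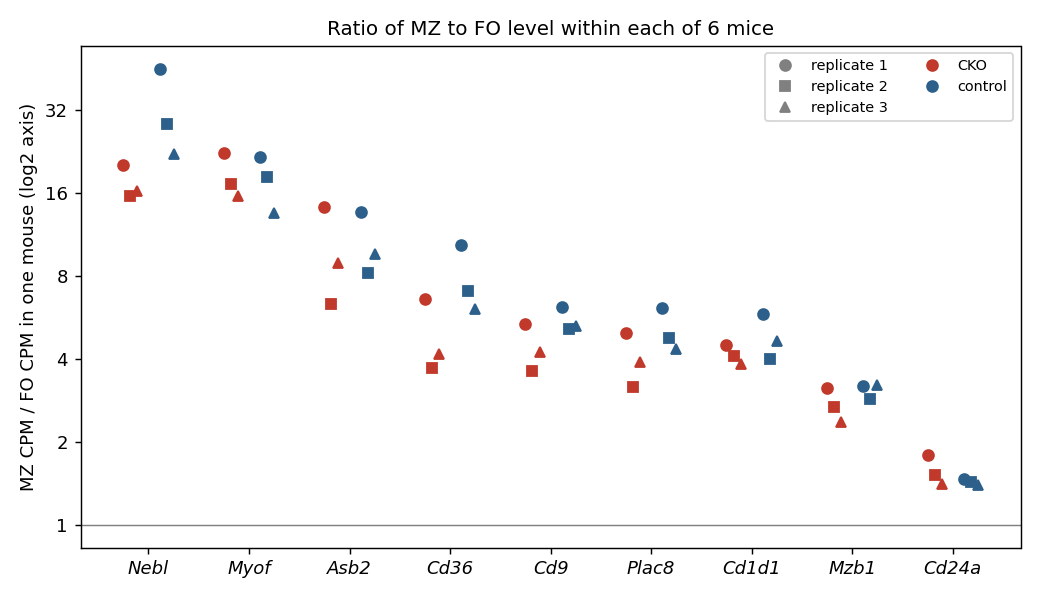
MZ level divided by FO level within each mouse (vertical axis, log2 scale), for CKO mice on the left and control mice on the right of each gene. Each point is 1 mouse and its shape is the replicate number; all points lie above 1, and the Nebl points of CKO mice, at 15.6 to 20.3, lie below those of control mice, at 22.2 to 45.2.

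In MZ B cells, none of the 9 genes passed the test of CKO against control. In that comparison 14 of 17658 genes passed (0.0793%), and Cdca7 was not among them. The median log2 fold change of the 9 was 0, with 5 positive and 4 negative values. Without adjustment, 1 of the markers and 2.9% of all genes lay under 0.05. This was Cd9, which was at -0.33 (log2, SE 0.09, 95% interval -0.54 to -0.12) in CKO against control. Its edgeR quasi-likelihood p was 0.005106 before and 1 after adjustment. Its libraries did not overlap, as was so for 3.98% of all genes in the lower direction, and the exact permutation p was 0.1, the smallest that 3 libraries against 3 allow. For the other 8 genes the interval held 0. It ran from -0.25 to 0.4 for Cd1d1, from -0.09 to 0.38 for Cd36, from -0.04 to 0.4 for Cd24a, from -0.33 to 0.13 for Myof and from -0.32 to 0.33 for Nebl. It ran from -0.44 to 0.19 for Asb2, from -0.28 to 0.14 for Plac8 and from -0.13 to 0.27 for Mzb1. These intervals bound the size of a change and do not show that the groups were equal.

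In FO B cells, again none of the 9 passed, where 16 of 17777 genes did (0.09%), Cdca7 not among them. The log2 values were positive for 8 of the 9 genes and for 9242 of all 17777 genes, with a median of 0.26 against 0.00564 over all genes. The 9 genes were measured in the same libraries, so their signs are not independent of each other. At an unadjusted p under 0.05, 4 of the 9 were higher in CKO, against 2.08% of all genes in that direction. Cd36 averaged 49.5 ± 7.46 CPM in FO CKO and 28.1 ± 7.25 CPM in FO control libraries (SD, n = 3 each), a log2 fold change of 0.82 (SE 0.23, 95% interval 0.25 to 1.39, edgeR adjusted p = 0.9995). FO CKO and FO control libraries with the same replicate number came from different mice, and the labels name no batch that they share. Their deviations across genes correlated at 0.129, 0.386 and 0.383. With the number as a block, an alternative to the main fit, Cd36 passed at 0.84 (SE 0.09, edgeR adjusted p = 0.007785). It was 1 of 9 markers and 25 genes in all that passed. Cd36 also passed in DESeq2 (adjusted p = 0.002319).

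Nebl averaged 5.05 ± 0.716 CPM in FO CKO and 2.95 ± 0.962 CPM in FO control libraries (SD, n = 3 each), a log2 fold change of 0.78 (SE 0.24, 95% interval 0.25 to 1.3, edgeR adjusted p = 0.9995). Mzb1 differed by 0.26 (95% interval 0.08 to 0.44) and Cd1d1 by 0.3 (0.04 to 0.56). Libraries of Cd36, Nebl and Mzb1 did not overlap between FO CKO and FO control, as was so for 4.44% of all genes in that direction, while those of Cd1d1 did. Plac8 differed by 0.28 (-0.04 to 0.6), Cd24a by 0.05 (-0.15 to 0.24), Cd9 by 0.01 (-0.24 to 0.25), Asb2 by 0.02 (-0.68 to 0.73) and Myof by -0.17 (-0.82 to 0.47). Expressed as a share of the MZ control level, the FO CKO minus FO control difference was 10.2% for Cd36, 6.32% for Mzb1, 4.83% for Cd1d1, 4.28% for Plac8, 2.4% for Nebl, 2.17% for Cd24a, 0.141% for Asb2, 0.0634% for Cd9 and -0.667% for Myof. In bulk samples, more cells of a type and more RNA per cell cannot be told apart.

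**Figure D3:**
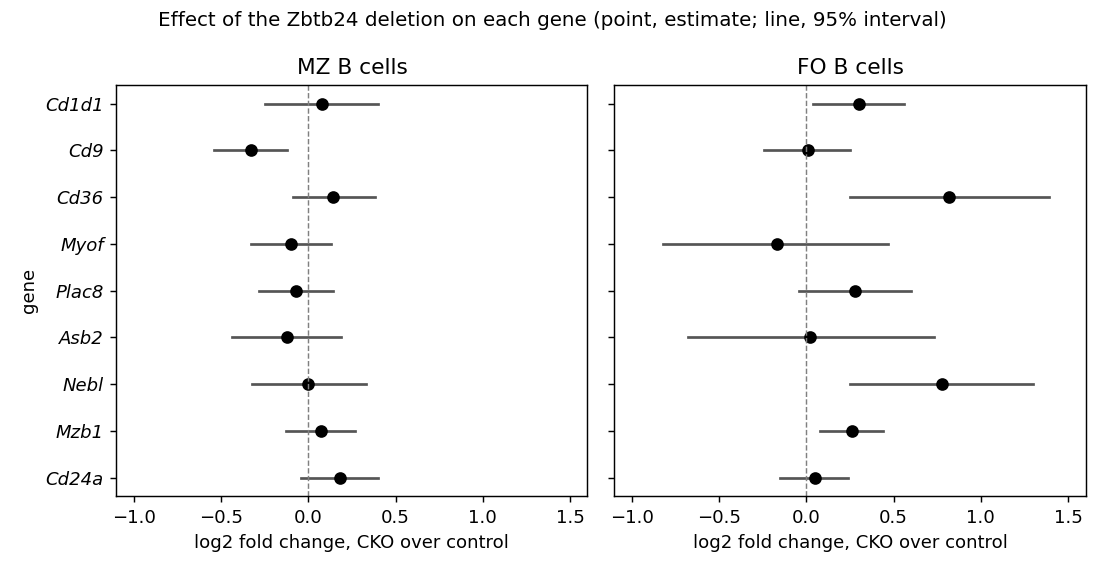
Log2 fold change of CKO over control (horizontal axis) for each gene in MZ B cells on the left and FO B cells on the right. Points are edgeR estimates and lines 95% intervals from 3 libraries per group; the FO intervals of Cd1d1, Cd36, Nebl and Mzb1 lie above 0 and the MZ interval of Cd9 lies below 0, before adjustment over genes.

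The difference of the CKO effect between cell types was tested itself. By edgeR's interaction test 0 of 18546 genes passed (0%), with 238 genes (1.28%) at an unadjusted p under 0.05, 3 of them among the 9 markers. The MZ minus FO difference of the log2 effects was -0.33 for Cd9, -0.67 for Cd36 (95% interval -1.26 to -0.08) and -0.77 for Nebl (-1.43 to -0.11), each with an edgeR adjusted p of 1. With the animal as a block, 4 genes passed, and 0 of the 9. DESeq2 and limma-voom called 0 genes.

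Markers of other cells differed between groups and libraries. The log2 values of all 8 neutrophil genes were positive in CKO against control in both cell types, with a median of 1.08 in MZ and 1 in FO B cells, and 0 of 8 passed in either. Summed over these 8 genes, levels were 97 to 278 CPM in FO CKO and 58.2 to 148 CPM in FO control libraries, and 55.1 to 168 CPM in MZ CKO and 39.5 to 108 CPM in MZ control libraries. The 8 macrophage genes summed to 282 to 516 CPM in FO CKO and 213 to 438 CPM in FO control libraries, and to 213 to 340 CPM in MZ CKO and 178 to 348 CPM in MZ control libraries. The 7 T cell genes summed to 161 to 230 CPM in FO CKO and 231 to 263 CPM in FO control libraries, which were narrowly apart. In CKO against control, 0 of the 7 passed in either cell type. The same genes summed to 97.1 to 156 CPM in MZ CKO and 113 to 187 CPM in MZ control libraries, in both genotypes below all FO libraries of that genotype. Of the 7, 1 was lower in MZ in CKO mice and 5 in control mice. Of all genes, 1378 of 17712 were lower in CKO mice and 2324 of 17830 in control mice. The 7 platelet genes summed to at most 6.2 CPM in any library. Replicate 2 had the highest neutrophil, macrophage and erythroid sums in all 4 groups. In MZ B cells it was the lowest library of its group for 8 of the 9 markers in CKO and for 8 of 9 in control mice. In FO B cells the lowest library was instead replicate 1, for 7 of 9 markers in CKO and 7 of 9 in control mice. Replicate 1 had the lowest neutrophil sum and the lowest macrophage sum in all 4 groups. In FO B cells its neutrophil sum was 97 CPM in CKO and 58.2 CPM in control mice, and in MZ B cells 55.1 and 39.5 CPM. Its macrophage sum was 282 CPM in FO CKO, 213 CPM in FO control, 213 CPM in MZ CKO and 178 CPM in MZ control. In MZ B cells the same replicate was the highest library for 7 of 9 markers in CKO and 6 of 9 in control mice. Of 6 plasma cell genes, 2 were higher and 2 lower in MZ than in FO B cells in each genotype. Of 5 B-1 cell genes, 1 was higher in CKO mice, and 1 was higher and 1 lower in control mice. Of 4 transitional and immature B cell genes tested, 1 was lower in CKO and 2 in control mice. Of 7 dendritic cell genes, 0 passed in CKO mice and 2 were lower in control mice. Of all genes, 10.5% were higher in CKO mice and 14.9% in control mice. No list had a gene at 0 in every library of a group. The part of these cells in the marker differences was not tested.

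**Figure D4:**
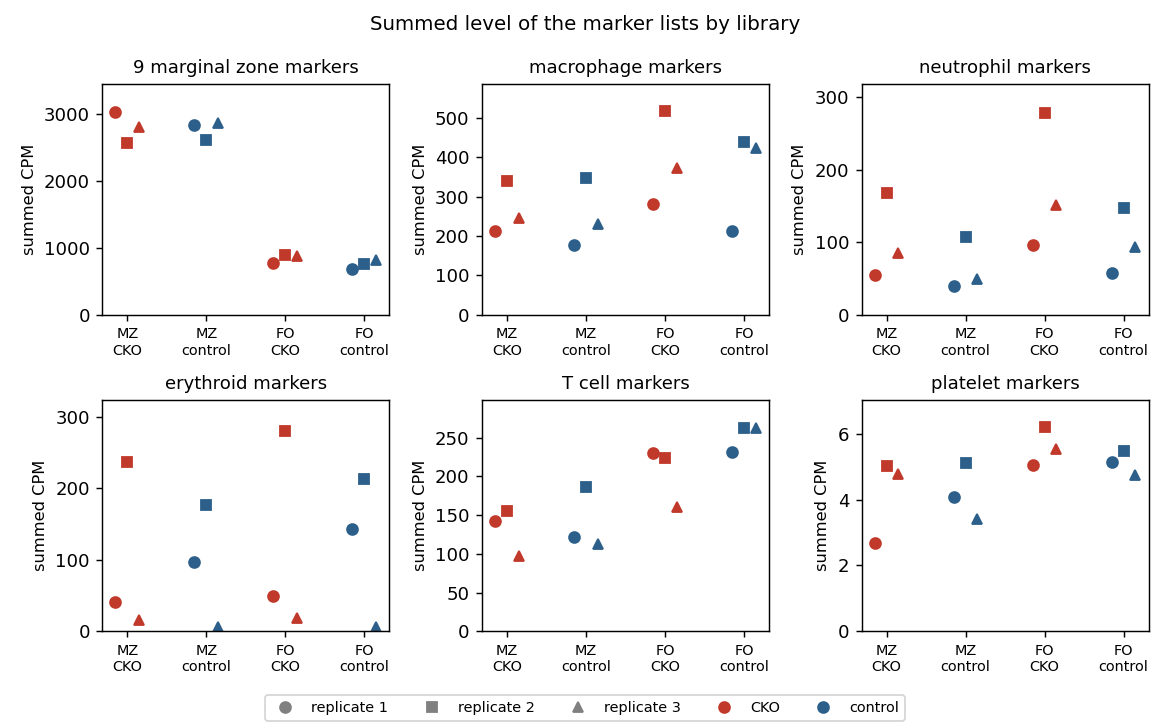
Summed CPM (vertical axes, linear from 0) of the 9 MZ markers and of 5 lists of markers of other cell types, by library in the 4 groups. Points are libraries and shapes are replicates; the MZ marker sum is 2570 to 3020 CPM in MZ CKO, 2610 to 2860 in MZ control, 770 to 896 in FO CKO and 685 to 825 in FO control, and replicate 2 is highest for the neutrophil and erythroid lists.

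Of 11 other genes reported in MZ B cells, 9 were higher in MZ and 1 lower in CKO mice, and 9 were higher and 1 lower in control mice. S1pr3, a sphingosine phosphate receptor, averaged 257 ± 34.3 CPM in MZ CKO against 11.9 ± 3.94 CPM in FO CKO, and 276 ± 9.59 CPM in MZ control against 11.2 ± 1.76 CPM in FO control libraries. Notch2 did not pass in either genotype, with log2 values of 0.07 in CKO and 0.00 in control mice. Ackr3, a chemokine scavenging receptor, had 151, 117 and 23.3 CPM in MZ CKO and 26.2, 18 and 21.2 CPM in MZ control libraries, and did not pass (edgeR adjusted p = 1). None of the 11 passed CKO against control in either cell type.

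Families and partners of the markers were read against the 10.5% of all genes higher in MZ in CKO mice and 14.9% in control mice. In the lower direction, 1378 of all 17712 genes passed in CKO mice and 2324 of all 17830 in control mice. Of 15 tetraspanins related to Cd9, 5 were higher and 1 lower in MZ in CKO mice, and 5 higher and 0 lower in control mice, led by Cd81 at 0.99 (log2, SE 0.06). Of 10 genes of CD1d presentation, 2 were higher and 0 lower in CKO mice, and 3 higher and 1 lower in control mice. Psap, the precursor of the saposins that load lipids, was at 1.07 in CKO and 1.01 in control mice. Cd1d2, the near-identical neighbour of Cd1d1, was also among those higher, at 2.68 in CKO and 3.1 in control mice. Its levels were low, at 4.12 CPM in MZ CKO and 3.93 CPM in MZ control libraries. Calr was the gene lower in control mice, at -0.33. Of 8 genes of the ASB2 ligase and its substrates, 1 was lower in CKO and 2 in control mice; Flna, a filamin, was at -0.73 in CKO and -0.89 in control mice. Of 6 genes of MZB1 partners and immunoglobulin assembly, 3 were higher in each genotype, led by Pdia4 at 2.03 in CKO and 2.2 in control mice. None of the ferlins tested passed. Of 7 CD9 partners, 1 was higher and 1 lower in CKO mice, and 1 higher and 3 lower in control mice. Hbegf, a growth factor precursor bound by CD9, was at 3.8 (log2, SE 0.32) in CKO and 3.76 (SE 0.4) in control mice. Its levels were low, at 3.3 CPM in MZ CKO and 3.34 CPM in MZ control libraries, and FO libraries held 4 to 17 counts each. Of 10 scavenger receptor and fatty acid uptake genes, 1 was higher and 1 lower in CKO mice, and 1 higher and 2 lower in control mice. Of 2 nebulin family genes tested, Neb was higher and Lasp1 lower in both genotypes. Of 5 CD24 partners, 1 was higher and 1 lower in CKO mice, and 2 higher and 2 lower in control mice. Of 7 FO B cell markers, 6 were lower in MZ in each genotype and Cxcr5 was higher. None of the genes in these lists passed CKO against control in either cell type.

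Across the 12 libraries, profiles were compared by the root mean square difference of centred log2(CPM + 0.5) values among 9642 other protein-coding genes, as a description. The nearest gene was Nedd4 for Plac8 (0.114), Cyp39a1 for Cd9 (0.134), Camkmt for Cd1d1 (0.163), Fcrl5 for Asb2 (0.179), I830077J02Rik for Myof (0.18), Mfhas1 for Cd36 (0.279) and S1pr3 for Nebl (0.299). Bid was nearest to Mzb1 (0.0931) and Pgk1 to Cd24a (0.0542). Among the markers themselves, Cd1d1 and Plac8 were the closest pair (0.142).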

How the data were processed

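Per the submitters' processing notes, TopHat, HTSeq and DESeq2 were used on build GRCm38 (mm10); versions, annotation release and strand setting are not given in the sources used here. The authors deposited raw read counts for 46078 genes in 12 libraries, 3 per group. The 5 entries naming no gene, 43.2 to 50.4% of each library's entries, were left out. Symbols, coordinates and exon lengths came from GENCODE M21.

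Genes were filtered by filterByExpr on the groups compared, scaled by TMM and tested with the two-sided quasi-likelihood F test of edgeR 4.0.16 in R 4.3.3 (robust), with Benjamini-Hochberg adjustment over all genes and a threshold of 0.05. SE is the absolute log2 fold change over the square root of F. CPM used TMM over 12 libraries. limma 3.58.1, DESeq2 1.42.0, other scalings, no filter, blocks and leaving out each library were alternatives. Code was tested on simulated data. Same-animal MZ and FO libraries deviated together (correlations 0.51 to 0.747).

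The 9 markers and the gene lists were chosen with earlier results of these data known. Named genes were the 9 markers, Zbtb24, Cdca7, up to 4 genes per list with the largest change in MZ against FO of control mice, and the nearest profiles; Notch2 and the other list genes outside this were named after their values were seen. The motifs are common core forms. Labels do not say that libraries of a group came from separate litters, so p-values measure the spread between these libraries.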

Additional observations from a re-analysis of the deposited data

How the results depend on the processing

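All 234 alternative values of the MZ over FO differences of the 9 genes kept their direction and passed. In the CKO comparisons and their difference, 379 of 405 values kept direction and call, 4 newly passed and 22 changed sign. In FO B cells the number of markers called was 0 in the main fit. It was 1 with DESeq2 (Cd36), 1 with the replicate block (Cd36) and 2 with no filter on low counts. The last were Plac8 (edgeR adjusted p = 0.03772) and Nebl (edgeR adjusted p = 0.0351). Calls over all genes also rose in each of these settings, as given below. The adjusted p of Cd36 over its alternatives ran from 0.002319 to 1. Without each library in turn, no marker passed in the CKO comparisons.

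The sign changes were near 0. In MZ B cells Nebl was at -0.00743 with limma-voom and at -0.00786 with the replicate block. Leaving out single libraries gave log2 ranges in MZ of -0.0728 to 0.186 for Cd1d1, -0.0878 to 0.151 for Nebl, -0.222 to 0.015 for Asb2, -0.015 to 0.148 for Mzb1, -0.156 to 0.0135 for Myof and -0.123 to 0.00957 for Plac8. In FO they were -0.0511 to 0.0566 for Cd9, -0.174 to 0.223 for Asb2, -0.0344 to 0.0997 for Cd24a and -0.364 to 0.083 for Myof, and for the difference between cell types -0.334 to 0.0669 for Asb2 and -0.173 to 0.277 for Myof. The cause was not tested.

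Counts of all genes called moved more. CKO against control in MZ B cells gave 14 genes, against 38 with DESeq2, 7 with limma-voom, 7 without robust estimation, 95 with no filter, 57 with the replicate block and 7, 5 and 9 without MZ control replicates 1, 2 and 3 and 34 without MZ CKO replicate 3; same-numbered MZ libraries did not all deviate together (correlations -0.0954, 0.413 and 0.402). In FO B cells 16 of 17777 genes passed (0.09%). The number was 40 with DESeq2, 140 with no filter, 25 with the replicate block and 31 without FO CKO replicate 3. MZ over FO in CKO mice gave 1898 genes without FO CKO replicate 1. Apart from Cd36 in FO B cells, the replicate block changed no marker call.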
